A study of Mus musculus with 12 samples.

Results

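Chemokine ligands and receptors were examined in cultures of primary mouse oligodendrocytes (OLs) after interference with Egr2, a zinc-finger transcription factor. Members were the rows of the count table whose symbol follows the family nomenclature, Ccl, Cxcl, Cx3cl1 and Xcl1 for the ligands and Ccr, Cxcr, Cx3cr1 and Ackr for the receptors, a rule that reads symbols only. This gave 60 genes of 56860 named rows, 39 ligands and 21 receptors. There were 12 RNA-seq libraries, 6 labelled siEgr2 and 6 labelled siNC, all from C57BL/6J cells that the labels assign to the medial prefrontal cortex (mPFC). According to the study's methods the cells were O4-positive immature OLs captured on antibody-coated beads from the cortex of newborn pups, expanded in PDGF-AA, differentiated with insulin, T3 and CNTF, and transfected to interfere with Egr2, for which the study names both a plasmid and an siRNA with a scrambled control. They were harvested after 48 h. Nothing in the labels says that the 6 libraries of a group are separate cultures, so the p-values measure the spread between libraries, which may be technical. By chi-square per gene the libraries fell partly into close pairs, siEgr2 replicates 1 and 2, 3 and 5, and 4 and 6 (7.56 to 8.77, against 13.3 to 27.4 for the other siEgr2 pairs) and siNC replicates 1 and 5, and 3 and 6 (13.4 to 14.3, against 21.8 to 39.8), and whether the libraries of a pair share a culture is not given. The comparison of siEgr2 with siNC addressed which transcripts change in these cultures when Egr2 is targeted.

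Chemokines are small secreted or membrane-tethered proteins that direct cell migration through G protein-coupled receptors. The inflammatory members are induced by cytokines and recruit leukocytes, whereas the homeostatic members, of which Cxcl12 is the best known in brain, are made constitutively and guide cells during development. Atypical receptors (Ackr) bind chemokines without G protein signalling and mostly remove them from the surroundings. In the central nervous system glial cells are recognised sources of ligands, and most of the conventional receptors sit on leukocytes and microglia.

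Total counts ranged from 28682946 to 39383014 in the siNC libraries and from 8034251 to 16683677 in the siEgr2 libraries, without overlap. Reads assigned to 18S ribosomal RNA also separated the groups, at 0.142% to 1.05% of counts in siNC and 10.5% to 16.5% in siEgr2, so depth, ribosomal RNA content and treatment cannot be told apart by group. Egr2 itself measured 5.35 ± 1.27 CPM in siNC and 3.77 ± 1.01 CPM in siEgr2 (mean ± SD, n = 6 each). Its log2 fold change was -0.51 ± 0.21 (SE), with an adjusted p of 0.0981 (edgeR, quasi-likelihood, Benjamini-Hochberg over all genes), which did not pass. Without composition factors it did (log2 fold change -0.70, adjusted p = 0.0144), and in no other fit. The ranges of Egr2 overlapped, from 3.89 to 7.06 CPM in siNC and from 2.22 to 4.86 CPM in siEgr2. OL markers were abundant in every library, with a summed level of 7849 to 8916 CPM in siNC and 7329 to 7645 CPM in siEgr2 for 10 genes, none of which was called (7 were lower at an unadjusted p under 0.05, and DESeq2 and limma-voom called 0). CPM is the library-scaled count, here taken against the total of the tested genes after TMM scaling for composition.

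Of the 60 members, 12 ligands and 4 receptors had enough counts to be tested among 16600 genes. Another 14 ligands and 2 receptors had 10 or more counts over the 12 libraries but did not pass the filter, 3 ligands and 5 receptors had 1 to 9 counts, and 10 ligands and 10 receptors had none. The filter asked for about 10 counts at the median depth (0.441 CPM) in 6 libraries. Of the tested members, 10 ligands and 2 receptors would have passed on the libraries of either group alone. These 10 include every ligand called below, and the other tested ones were Ccl27a and Ackr4, which met the minimum in all 6 libraries only of siNC, and Ccl28 and Ackr1, which did so only of siEgr2.

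Most of the tested ligand transcripts fell in siEgr2, and 0 of 4 tested receptor transcripts were called in either direction. A gene was called where the adjusted p was below 0.05 and the absolute log2 fold change exceeded 0.5. Of the 12 tested ligands, 8 were called lower and 0 higher, and 4 were not called. Over all tested genes 5.08% were called lower and 2.63% higher, 7.72% in either direction. The median log2 fold change was -0.83 over the tested ligands and 0.0046 over all tested genes. At an unadjusted p under 0.05 only Ccl25 was higher among ligands, and DESeq2 and limma-voom also called 8 ligands lower and 0 higher. In each of the 8, every siEgr2 library lay below every siNC library, a separation that 7.0% of all tested genes showed. Summed over the 39 ligands, the level ranged from 207 to 226 CPM in siNC and from 110 to 133 CPM in siEgr2. Astrocyte markers were lower in the same libraries, with a summed level over 10 genes of 8295 to 8995 CPM in siNC and 5321 to 6011 CPM in siEgr2. In siNC that level was close to that of the 10 OL markers (7849 to 8916 CPM). The transcripts thus cannot be assigned to OLs alone, and the part of astrocyte RNA in the ligand result was not tested. In bulk libraries such as these, fewer cells of a type and less RNA per cell cannot be told apart.

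**Figure D1:**
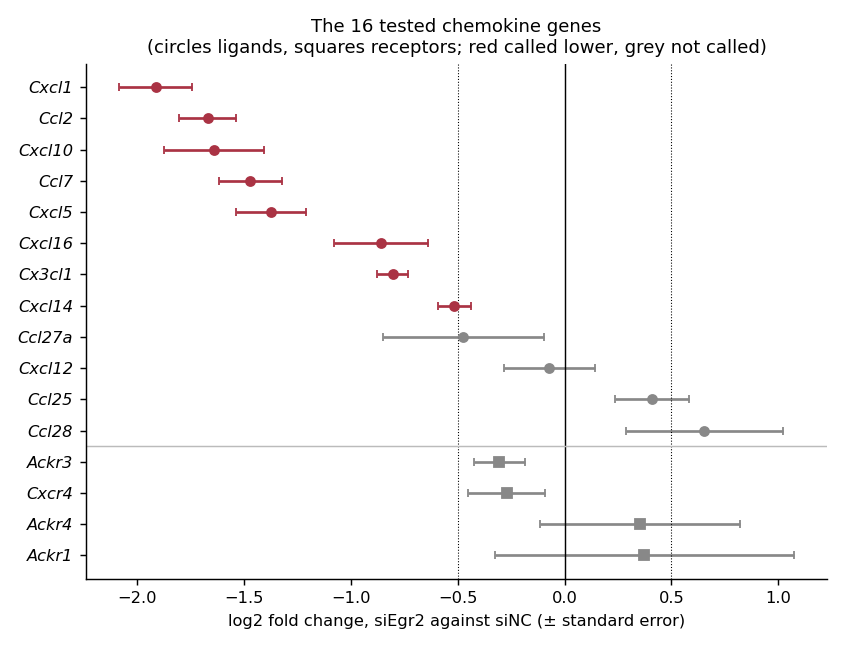
Log2 fold change of each tested chemokine gene in siEgr2 against siNC (x axis) with its standard error as a bar; dotted lines mark 0.5 in either direction. The 8 called ligands lie between -1.91 and -0.51, and the 4 receptors between -0.30 and 0.37.

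The CC ligands Ccl2 and Ccl7 attract monocytes, chiefly through Ccr2, and their genes are neighbours on chromosome 11, Ccl2 at chr11:82035571-82037453 and Ccl7 at chr11:82045712-82047525 (GRCm38, GENCODE M21), with 8258 bases between them. In siNC replicates 1 to 6, Ccl2 measured 26.2, 30.0, 29.6, 25.0, 24.3 and 28.2 CPM. In siEgr2 replicates 1 to 6 it measured 7.999, 9.03, 10.01, 8.97, 10.2 and 4.97 CPM. The highest siEgr2 library was thus well under the lowest siNC library, and siEgr2 replicate 6 was the lowest of all. Ccl2 fell by 1.67 ± 0.13 (SE) on the log2 scale (adjusted p = 3.2e-07), from 27.2 ± 2.39 to 8.54 ± 1.92 CPM (mean ± SD, n = 6 each). Ccl7 measured 7.32, 9.22, 11.02, 8.93, 8.47 and 8.86 CPM in siNC. In siEgr2 it measured 3.16, 2.77, 2.47, 3.36, 4.10 and 3.80 CPM. The groups did not overlap for Ccl7 either, and the library lowest for Ccl2 was the second highest of its group for Ccl7. Ccl7 fell by 1.47 ± 0.15 (SE) on the log2 scale (adjusted p = 3.2e-06), from 8.97 ± 1.20 to 3.28 ± 0.613 CPM. The next genes of this cluster were near the detection limit. Ccl11, an eosinophil attractant, had 25 counts in all siNC libraries together and 18 in all siEgr2 libraries, Ccl8 had 93 and 12, and Ccl12 and Ccl1 had none.

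Cxcl1 and Cxcl5 are ligands of Cxcr2 and attract neutrophils. They lie on chromosome 5, Cxcl5 at chr5:90759360-90761624 and Cxcl1 at chr5:90891241-90893115, and Cxcl1 showed the largest absolute log2 fold change of the tested members. Its level was 23.0, 24.0, 24.4, 19.2, 21.9 and 23.5 CPM in siNC replicates 1 to 6. In siEgr2 replicates 1 to 6 it was 5.38, 6.35, 5.07, 8.75, 2.95 and 7.31 CPM. The highest siEgr2 library, replicate 4, stayed far below the lowest siNC library, also replicate 4. Cxcl1 fell by 1.91 ± 0.17 (SE) on the log2 scale (adjusted p = 1.1e-06), from 22.7 ± 1.89 to 5.97 ± 1.998 CPM, and the siEgr2 mean was 26.3% of the siNC mean. Cxcl5 was more variable in the controls, with 33.9, 30.3, 17.8, 19.8, 27.7 and 20.7 CPM in siNC. In siEgr2 it measured 8.67, 11.7, 8.77, 7.85, 11.1 and 10.1 CPM. The coefficient of variation of Cxcl5 was 26.0% in siNC and 15.7% in siEgr2, and the ranges stayed apart. Cxcl5 fell by 1.37 ± 0.16 (SE) on the log2 scale (adjusted p = 2.6e-05), from 25.0 ± 6.52 to 9.72 ± 1.53 CPM. Cxcl2, a further Cxcr2 ligand that starts 10755 bases beyond Cxcl1, did not pass the filter. It had 9, 20, 28, 6, 20 and 44 counts in siNC and 3, 11, 0, 2, 2 and 0 counts in siEgr2. Cxcl3 and Cxcl15, which lie between Cxcl5 and Cxcl1, had no count in any library.

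Cxcl10 (chr5:92346638-92348889) is an interferon-inducible ligand of Cxcr3 that attracts activated T cells. It measured 12.2, 8.92, 10.2, 12.6, 10.7 and 10.4 CPM in siNC. The siEgr2 libraries had 5.24, 4.88, 2.90, 1.35, 3.84 and 2.63 CPM. The siEgr2 values spread more widely relative to their mean, with a coefficient of variation of 42.3% against 12.6%, and all were below the lowest siNC value. Cxcl10 fell by 1.64 ± 0.23 (SE) on the log2 scale (adjusted p = 1.2e-04), from 10.8 ± 1.37 to 3.47 ± 1.47 CPM. Its neighbours Cxcl9 and Cxcl11, which bind the same receptor, were almost undetected. Cxcl9 had 12 counts in siNC replicate 3, 10 counts in siEgr2 replicate 4 and none elsewhere, and Cxcl11 had 4 counts in all. Cxcl10 shares 133 of its 2252 exon bases with Art3 on the opposite strand. Art3 had 66 counts over all libraries against 2480 for Cxcl10.

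**Figure D2:**
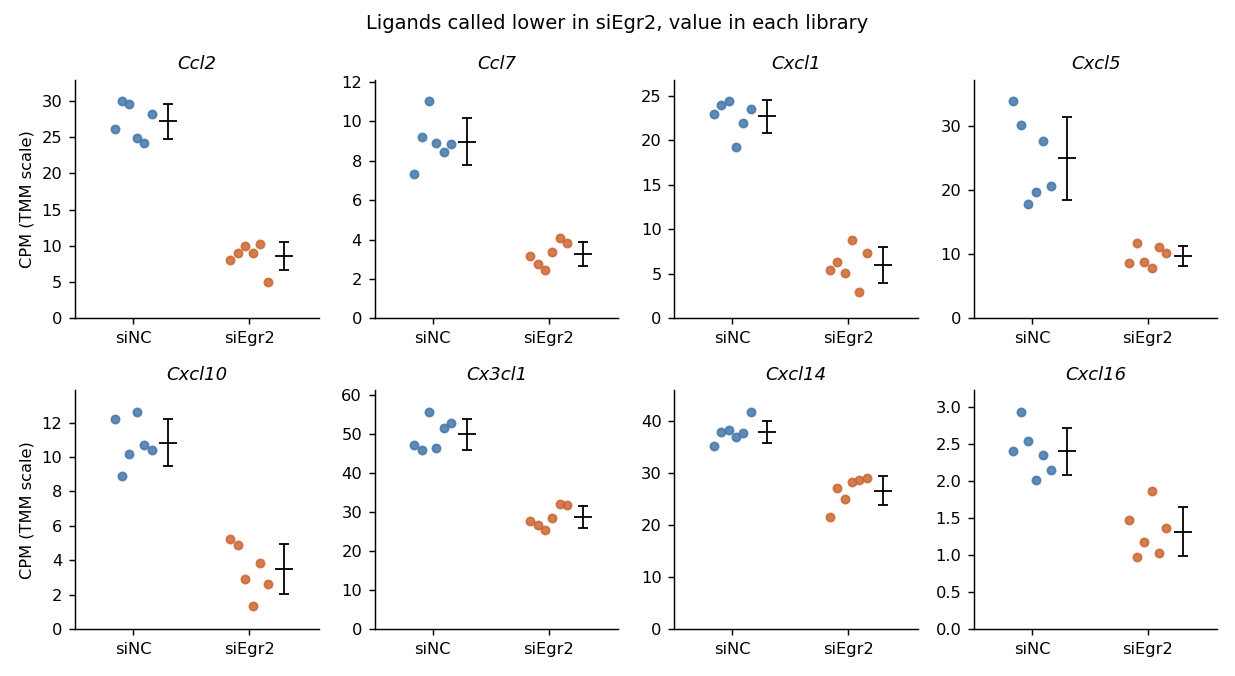
Level of the 8 ligands called lower, in CPM on the TMM scale (y axes from 0), with 1 point per library and the mean ± SD of 6 libraries beside each group. In every panel the siEgr2 points lie below all siNC points, with the nearest approach for Cxcl16 (1.87 against 2.02 CPM).

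The start regions of Cxcl1 and Cxcl10, which carry a kappaB consensus, are printed with that of Cxcl2, the neighbour of Cxcl1 with the same match, and that of Cxcl12, a ligand that was not called and has none of the letters searched. The sequences are the 250 bases upstream of the RefSeq start (GRCm38.p6), 5′ to 3′ on the gene's strand. Cxcl1 is taken from chr5:90890995-90891244 (plus strand), Cxcl2 from chr5:90903649-90903898 (plus strand), Cxcl10 from chr5:92348890-92349139 (minus strand) and Cxcl12 from chr6:117168285-117168534 (plus strand). Capitals mark a match to the kappaB consensus, the sequence class bound by NF-kappaB, or, in Cxcl10, the leftmost run GAAAGTGAAA, a match to the interferon element GAAANNGAAA.
Cxcl1: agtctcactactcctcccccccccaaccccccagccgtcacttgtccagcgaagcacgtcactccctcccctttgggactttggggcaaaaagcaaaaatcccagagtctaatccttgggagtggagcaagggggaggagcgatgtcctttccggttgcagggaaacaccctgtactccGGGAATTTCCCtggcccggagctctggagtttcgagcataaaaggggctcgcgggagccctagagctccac
Cxcl2: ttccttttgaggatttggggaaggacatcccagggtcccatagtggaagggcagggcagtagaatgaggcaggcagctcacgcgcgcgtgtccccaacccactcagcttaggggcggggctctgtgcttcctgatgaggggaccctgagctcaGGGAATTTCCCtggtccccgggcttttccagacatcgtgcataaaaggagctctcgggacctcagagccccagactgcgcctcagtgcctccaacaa
Cxcl10: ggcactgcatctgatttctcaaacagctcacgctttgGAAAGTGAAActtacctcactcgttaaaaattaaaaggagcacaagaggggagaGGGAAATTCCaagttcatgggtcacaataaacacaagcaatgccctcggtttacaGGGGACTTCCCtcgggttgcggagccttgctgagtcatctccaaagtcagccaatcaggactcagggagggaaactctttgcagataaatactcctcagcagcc
Cxcl12: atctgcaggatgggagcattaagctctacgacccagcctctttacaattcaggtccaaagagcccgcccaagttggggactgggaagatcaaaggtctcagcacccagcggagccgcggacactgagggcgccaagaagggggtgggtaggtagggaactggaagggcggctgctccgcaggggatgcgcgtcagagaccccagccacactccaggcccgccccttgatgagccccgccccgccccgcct
In Cxcl1 the run in capitals holds overlapping matches on both strands, between 71 and 61 bases before the start, and Cxcl2 holds the same letters between 97 and 87 bases before its start. Cxcl10 holds a match 159 to 150 bases before the start and overlapping matches 104 to 94 bases before it, besides the interferon element at 213 to 204 bases. Both strands were searched in 32851 promoters of the same length, of which 7.25% held the kappaB consensus, 2.98% the interferon element and 4.7% the Egr site GCGNGGGCG. RefSeq promoters were matched to 45 of the 60 members, among them 8 of the 12 tested ligands. Cxcl1 and Cxcl10 were the only tested ligands of the 8 with a kappaB match, and Cxcl10 and Cxcl14 the only ones with the interferon element. Cx3cl1 and Cxcl14, also called lower, have a promoter among those searched and no kappaB match. The kappaB match also occurred in 5 of 20 untested ligands and 4 of 13 untested receptors with a promoter, among them the ligands Ccl1, Ccl20 and Cxcl3 and the receptor Ackr2, which had no count. The Egr site was found in no ligand and in 1 receptor, Cxcr4, 94 to 86 bases before the start on the opposite strand. These are matches of letters in a fixed window, and binding was not measured. Ccl2, Ccl7, Cxcl5 and Cxcl16 are not in the table of promoters used.

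Cx3cl1, or fractalkine (chr8:94772009-94782427), is tethered to the membrane, is made mainly by neurons in the brain and acts on Cx3cr1, the receptor of microglia. It had the highest CPM of all members in 6 of 6 siNC and 5 of 6 siEgr2 libraries, with Cxcl14 higher in siEgr2 replicate 2. Its level in siNC replicates 1 to 6 was 47.2, 45.9, 55.6, 46.3, 51.4 and 52.8 CPM. In siEgr2 it was 27.6, 26.6, 25.3, 28.5, 32.1 and 31.8 CPM. The values were even within each group, and the groups stood clearly apart. Cx3cl1 fell by 0.80 ± 0.07 (SE) on the log2 scale (adjusted p = 1.2e-06), from 49.9 ± 3.98 to 28.7 ± 2.77 CPM. Cx3cr1 had 0 counts in each siNC library and 0, 0, 0, 2, 0 and 2 counts in siEgr2 replicates 1 to 6. A count of 0 allows up to 3 counts, which is 0.0718 to 0.0982 CPM in the siNC libraries and 0.185 to 0.384 CPM in the siEgr2 libraries, counting error only.

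Cxcl16 (chr11:70453983-70459984), the other membrane-tethered chemokine and the ligand of Cxcr6, was the scarcest of the called members, with 69 to 96 counts in a siNC library and 8 to 25 in a siEgr2 library. It measured 2.41, 2.93, 2.55, 2.02, 2.36 and 2.15 CPM in siNC. Values in siEgr2 were 1.48, 0.977, 1.17, 1.87, 1.02 and 1.36 CPM. The groups were close but did not overlap. Cxcl16 fell by 0.86 ± 0.22 (SE) on the log2 scale (adjusted p = 0.0109), from 2.40 ± 0.320 to 1.31 ± 0.333 CPM. It shares 552 of 3021 exon bases with Zmynd15 on the opposite strand, which had 61 counts over all libraries against 589 for Cxcl16. With the close pairs of libraries summed to 4 siNC and 3 siEgr2 units, the log2 fold change of Cxcl16 was -0.85 and its adjusted p 0.0628, so that it was not called.

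Cxcl14 (chr13:56288643-56296551) is a constitutively made chemokine whose receptor is not settled. It measured 35.1, 37.9, 38.2, 36.9, 37.7 and 41.7 CPM in siNC. Under siEgr2 the level was 21.6, 27.0, 25.0, 28.3, 28.7 and 29.0 CPM. The spread was small, with coefficients of variation of 5.68% and 10.8%, and siEgr2 replicate 1 was the lowest library. Cxcl14 fell by 0.51 ± 0.08 (SE) on the log2 scale (adjusted p = 1.4e-04), from 37.9 ± 2.15 to 26.6 ± 2.87 CPM, just past the fold threshold. Its log2 fold change was -0.48 without siNC replicate 6 and -0.46 without siEgr2 replicate 1, under the threshold in both, so that 7 ligands were called in each of these fits.

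Cxcl12, the ligand of Cxcr4 and Ackr3, was the most abundant of the ligands that were not called. Its levels were 29.5, 18.9, 14.6, 23.9, 14.4 and 14.9 CPM in siNC replicates 1 to 6. In siEgr2 replicates 1 to 6 they were 19.0, 17.4, 22.2, 24.4, 13.8 and 13.0 CPM. The ranges overlapped almost entirely, and the variation within siNC was large, with a coefficient of variation of 32.0%. The log2 fold change was -0.07 ± 0.21 (SE), with an adjusted p of 0.855, and its sign turned without siNC replicate 1, the highest library, where it was 0.089. Cxcr4 measured 6.19, 5.44, 6.57, 4.77, 4.81 and 5.46 CPM in siNC. The siEgr2 libraries had 6.39, 6.19, 3.95, 3.59, 3.33 and 3.90 CPM. Both siEgr2 replicates 1 and 2 sat within the siNC range and 4 were below it. The log2 fold change of Cxcr4 was -0.27 ± 0.18 (SE, adjusted p = 0.325), and -0.45 without composition factors (adjusted p = 0.0580). Ackr3, which takes up Cxcl12, measured 13.5, 14.4, 10.9, 13.8, 14.0 and 13.6 CPM in siNC. Values in siEgr2 were 8.07, 9.60, 11.1, 10.4, 12.9 and 13.2 CPM. The siNC libraries were tightly grouped apart from replicate 3, and 3 siEgr2 libraries lay within the siNC range and 3 below it. The log2 fold change of Ackr3 was -0.30 ± 0.12 (SE, adjusted p = 0.0891), and it was the 1 receptor with an unadjusted p under 0.05 in the edgeR fit.

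**Figure D3:**
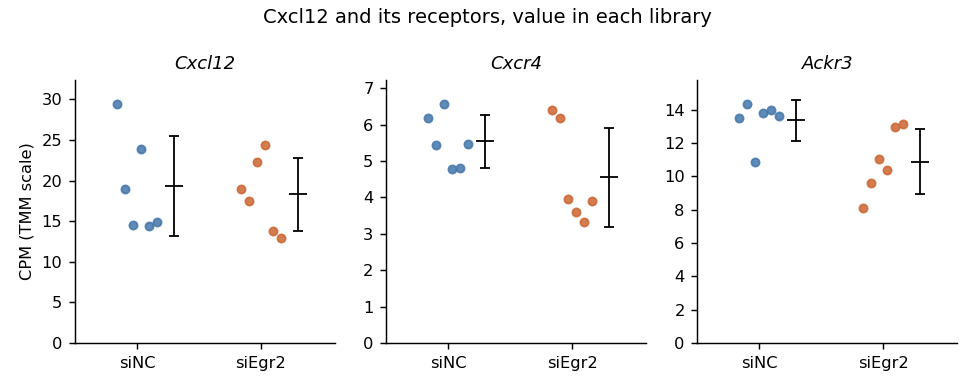
Level of Cxcl12 and of its receptors Cxcr4 and Ackr3, in CPM on the TMM scale (y axes from 0), with 1 point per library and the mean ± SD of 6 libraries beside each group. The groups overlap in all panels; group means are 19.4 and 18.3 CPM for Cxcl12, 5.54 and 4.56 CPM for Cxcr4, and 13.3 and 10.9 CPM for Ackr3.

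The other tested ligands, all best known outside the brain, had low levels and were not called. Ccl25, the thymic and intestinal ligand of Ccr9, measured 6.25 ± 0.869 CPM in siNC and 8.29 ± 2.52 CPM in siEgr2, with a log2 fold change of 0.41 ± 0.17 (SE, adjusted p = 0.117). That value was 0.22 without composition factors and 0.25 without siEgr2 replicate 4. It shares 204 of 7445 exon bases with Elavl1 on the opposite strand, which had 35054 counts against 1913, so its level is uncertain where strand was not used. Ccl28, a mucosal ligand of Ccr10, measured 1.21 ± 0.557 and 1.93 ± 0.690 CPM, with a log2 fold change of 0.65 ± 0.37 (adjusted p = 0.238), and siEgr2 replicate 6 was apart from the others of its group at 3.31 CPM. Without that library the log2 fold change of Ccl28 was 0.44. Ccl27a, a skin ligand of Ccr10, measured 1.5 ± 0.343 and 1.07 ± 0.680 CPM, with a log2 fold change of -0.47 ± 0.38 (adjusted p = 0.422), which ran from -0.74 without siEgr2 replicate 6 to -0.31 without siEgr2 replicate 5. Ccl27a has a near-identical copy, Ccl27b, with 0 counts in this table, so its level is uncertain as well.

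The tested receptors, taken as a group, had a median log2 fold change of 0.041, and 0 of 4 were called in either direction by edgeR, DESeq2 or limma-voom. Over all tested genes edgeR called 7.72% in either direction, so 0 of 4 does not set the receptors apart. Ackr1, an atypical receptor for many inflammatory chemokines, measured 0.814, 4.58, 5.12, 5.30, 0.294 and 0.335 CPM in siNC. Under siEgr2 the level was 2.02, 4.23, 5.19, 3.66, 3.33 and 2.73 CPM. The siNC libraries fell into 3 low and 3 high values, and the siEgr2 values lay between or within them. Its log2 fold change was 0.37 ± 0.70 (SE, adjusted p = 0.766), and it ranged from 0.14 without siNC replicate 6 to 1.29 with limma-voom (0.94 with the replicate block), never called. Ackr1 shares 361 of 1405 exon bases with Cadm3 on the same strand, a gene at 36.6 to 63.7 CPM, so the division of reads between them is uncertain. Ackr4, which takes up Ccl19, Ccl21 and Ccl25, measured 0.644 ± 0.185 CPM in siNC and 0.794 ± 0.548 CPM in siEgr2, with a log2 fold change of 0.35 ± 0.47 (adjusted p = 0.659). It shares 479 of 5380 exon bases with Acad11 on the opposite strand, which had 9285 counts against 194.

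The conventional receptors of the called ligands were at or near 0 in these cells. Cxcr2 and Cxcr3 had 0 counts in all 12 libraries. Ccr2 had 13 counts in total, with at most 4 in a library, Cxcr6 had 8 and Cx3cr1 had 4. By contrast Cxcr4 had 1482 counts and Ackr3 had 3530, and both were detected in 12 of 12 libraries. Ccr9 had 12 counts and Ccr10 had 9.

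Of the ligands that did not pass the filter, Ccl3 and Ccl22 had counts only in siNC libraries. Ccl3, a macrophage inflammatory protein, had 14, 3, 0, 2, 4 and 25 counts in siNC and 0 in each siEgr2 library. Ccl22, a ligand of Ccr4, had 0, 6, 8, 6, 6 and 4 counts in siNC and 0 in each siEgr2 library. Cxcl13, the B cell attractant, had 6 counts in siNC replicates 4 and 5 and none elsewhere. At these depths a level at the same CPM would give fewer counts in siEgr2, and without the filter Ccl3 alone was added to the called ligands (adjusted p = 0.0452). Ccl5 had 63 counts in siNC and 21 in siEgr2, and Ccl9 had 72 and 17. Ccl4 had 9 and 10 counts, and Ccl6 had 7 and 15, all 15 in siEgr2 replicate 4. The near-identical Ccl21 copies cannot be separated with confidence and had 10 and 25 counts for Ccl21a, 23 and 1 for Ccl21b, and 28 and 15 for Ccl21d.

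Levels between genes were compared per kilobase of exon (GENCODE M21). In siNC the median level was highest for Ccl2, at 23.9 CPM per kilobase, followed by Cxcl14 at 20.7, Cxcl5 at 13.0, Cx3cl1 at 12.5, Cxcl1 at 12.4 and Ccl7 at 11.1 CPM per kilobase. The ranges over the siNC libraries overlapped for Cxcl5 (9.57 to 18.2), Cx3cl1 (11.7 to 14.1), Cxcl1 (10.3 to 13.0) and Ccl7 (9.14 to 13.8), so most of their order is not resolved. Within each siNC library, though, Cx3cl1 lay above Ccl7. Cxcl14 lay below Ccl2 in 6 of 6 siNC libraries. In siEgr2 Cxcl14 stood first at 15.1 CPM per kilobase, and Ccl2 at 7.91 and Cx3cl1 at 7.13 followed. Cxcl14 exceeded Ccl2 in 6 of 6 siEgr2 libraries, and Ccl2 exceeded Cx3cl1 in 5 of 6. Cxcl12, at 2.07 CPM per kilobase in siNC, was below Cxcl10 at 4.68, and lower in 6 of 6 libraries. In siEgr2 the medians were 2.22 for Cxcl12 and 1.498 for Cxcl10, and Cxcl12 was higher in 3 of 6 libraries, so their order there is not resolved. The divisor joins all annotated exons of a gene, 8176 bases for Cxcl12 and 2252 for Cxcl10. A gene with several transcripts can thus read too low per kilobase. Before division by length, Cxcl12 had the higher siNC mean, 19.4 against 10.8 CPM. In CPM, Ccl2, Ccl7, Cxcl1, Cxcl5 and Cxcl10 together made up 43.9% of the mean ligand total in siNC and 26.0% in siEgr2. These 5 were taken for a log2 fold change under -1, so the fall of their share follows from the choice. The share of Cxcl14 was 17.6% and 22.3%, that of Cx3cl1 was 23.1% and 24.0%, and that of Cxcl12 was 8.96% and 15.3%, shares of a total that was lower in siEgr2.

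**Figure D4:**
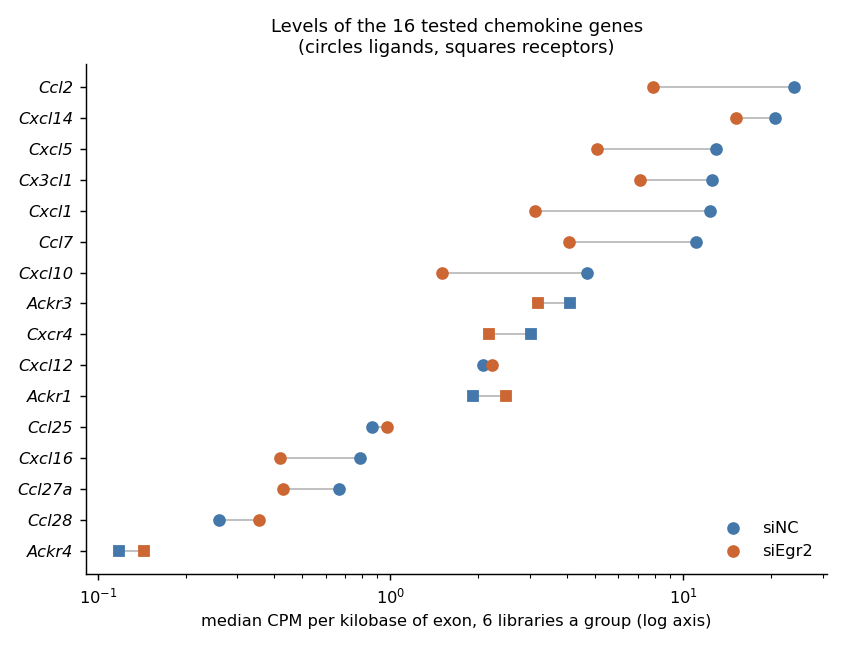
Median level of the 16 tested members in siNC and siEgr2 (6 libraries each), in CPM per kilobase of exon on a log axis, ordered by the siNC level. Ccl2 leads in siNC at 23.9 CPM per kilobase and Cxcl14 in siEgr2 at 15.1.

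Taken alone, each tested member was also compared by an exact two-sided permutation test over the 924 assignments of the 12 libraries, on log2(CPM + 0.5). The 8 called ligands each gave the smallest p this design can give (0.00216, unadjusted), which counts the 12 libraries as independent. Of the other 8 tested members, Ackr3 gave p = 0.0195 and Ccl28 gave p = 0.0455 in this exact test, both unadjusted for the 16 tests made, and the rest were above 0.05. Ccl28 met the filter's minimum in all 6 libraries only of siEgr2, where it was higher, so no weight is put on its p.

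Genes around the chemokine system were described by lists. Over all tested genes 16.9% were lower and 15.1% higher at an unadjusted p under 0.05, beside the 5.08% called lower and 2.63% called higher. Among cytokine inputs and NF-kappaB components, a list of activators, receptors and inhibitors of the pathway, 10 of 25 tested genes were called lower and 0 higher, with a median log2 fold change of -0.50. Tlr2, a receptor for bacterial lipoproteins, measured 7.65 ± 1.82 CPM in siNC and 2.12 ± 0.45 CPM in siEgr2 and fell by 1.85 on the log2 scale (adjusted p = 7.6e-06). Lif, a cytokine of the IL-6 family, fell by 1.32 (adjusted p = 0.00096). Il6ra, the IL-6 receptor chain, fell by 1.04 (adjusted p = 8.7e-06). Nfkbiz, an NF-kappaB cofactor induced by IL-1, fell by 0.94 (adjusted p = 1.1e-06). The called genes also include Nfkbia, an inhibitor of NF-kappaB, which fell by 0.89 (adjusted p = 5.7e-07) and was chosen for mention after its value was seen. At an unadjusted p under 0.05 this list had 19 genes lower and 1 higher, and DESeq2 and limma-voom called 12 and 11 lower and 0 higher.

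Genes whose products trim or bind chemokines also included called members, 5 of 17 tested genes lower and 0 higher, with a median log2 fold change of -0.31. The matrix metalloproteinases Mmp3 and Mmp13 fell by 1.84 and 1.64 on the log2 scale (adjusted p = 5.4e-06 and 1.7e-05). Sdc4, a heparan sulfate proteoglycan, measured 253 ± 14.8 CPM in siNC and 134 ± 15.3 CPM in siEgr2 and fell by 0.92 (adjusted p = 1.1e-07). Mmp14, a membrane metalloproteinase, fell by 0.75 (adjusted p = 0.00191). At an unadjusted p under 0.05, 7 were lower and 2 higher, and DESeq2 and limma-voom called 5 lower and 0 higher.

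The interferon response list was close to the background, with 1 of 20 tested genes called lower, 0 higher and a median of 0.036. The called gene was Gbp2, an interferon-induced GTPase, which fell by 1.11 (adjusted p = 5.1e-07). Among signalling components below the receptors, 1 of 32 was called lower and 0 higher, with a median of -0.054. It was Rgs16, a regulator that shortens G protein signals, at 52.1 ± 7.72 CPM in siNC and 25.5 ± 2.34 CPM in siEgr2, which fell by 1.03 (adjusted p = 1.2e-06). Of the chemokine relatives outside the family nomenclature, 1 of 12 tested was called lower, Cmtm3 (log2 fold change -0.65, adjusted p = 0.00104), and 0 higher, with a median of -0.17. At an unadjusted p under 0.05, the interferon list had 4 lower and 1 higher, the signalling list 9 and 7, and the relatives 3 and 3. DESeq2 and limma-voom each called 1 of the relatives higher and no interferon or signalling gene higher.

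Markers of other cells differed in direction. Of 10 astrocyte markers, 5 were called lower (Gfap, Aqp4, Slc1a2, Slc1a3 and Aldh1l1), and none was at 0. Gfap fell by 0.56 on the log2 scale and Slc1a3 by 0.85. The median log2 fold change of the astrocyte markers was -0.58, with 10 of 10 negative. At an unadjusted p under 0.05, 8 astrocyte markers were lower and 0 higher, and DESeq2 and limma-voom each called 6 lower. Of 9 tested fibroblast and pericyte markers, 4 were called lower (Pdgfrb, Rgs5, Vtn and Acta2), with a summed level of 923 to 1482 CPM in siNC and 916 to 1108 CPM in siEgr2. The fold change was negative for 9 of these 9, with a median of -0.45 on the log2 scale, 6 were lower at an unadjusted p under 0.05, and DESeq2 and limma-voom each called 4 lower. Among 7 precursor markers, Pdgfra and Cspg4 rose by 0.56 each, and the summed level was 2852 to 3251 CPM in siNC and 3621 to 3881 CPM in siEgr2. All 7 had a positive fold change, with a median of 0.38 on the log2 scale, 6 were higher at an unadjusted p under 0.05, and DESeq2 and limma-voom called 3 and 2 higher.

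Microglia, a known source of Ccl3, Ccl4 and Cxcl10 in brain, were scarcely represented. Of 15 microglial markers 8 were tested and 0 called (0 at an unadjusted p under 0.05, and 0 by DESeq2 or limma-voom), Aif1, Itgam and Fcrls had no count, and the summed level was 30.7 to 39.6 CPM in siNC and 25.9 to 38.3 CPM in siEgr2. None of 9 T cell and neutrophil markers was tested, and Cd3e, Cd8a and Ly6g had no count, with summed levels up to 0.489 CPM in siNC and 6.10 CPM in siEgr2. The latter is siEgr2 replicate 2, which held 35 of 38 counts of S100a8 and all 38 of S100a9, and the highest of the other siEgr2 libraries was at 0.494 CPM. Without siEgr2 replicate 2, 8 ligands were called lower. Of 8 endothelial markers 4 were tested and Flt1 was called lower (log2 fold change -1.35, adjusted p = 0.0164). Cldn5 had no count, and the summed level was 28.8 to 37.0 CPM in siNC and 28.8 to 39.1 CPM in siEgr2. Of 8 neuronal markers 7 were tested and Stmn2 was called lower (log2 fold change -0.91, adjusted p = 0.00105), with summed levels of 140.1 to 159 CPM in siNC and 122 to 133 CPM in siEgr2. Of these 7, 4 had a negative and 3 a positive fold change, with a median of -0.11 on the log2 scale, and 2 were lower and 1 higher at an unadjusted p under 0.05. Rbfox3, Snap25 and Syt1 had log2 fold changes of 0.41, 0.40 and 0.31 and were not called. Tubb3, also not called, made up most of the neuronal sum, with means of 114 CPM in siNC and 94.5 CPM in siEgr2. The part of any of these cells in the fall of the ligands was not tested.

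**Figure D5:**
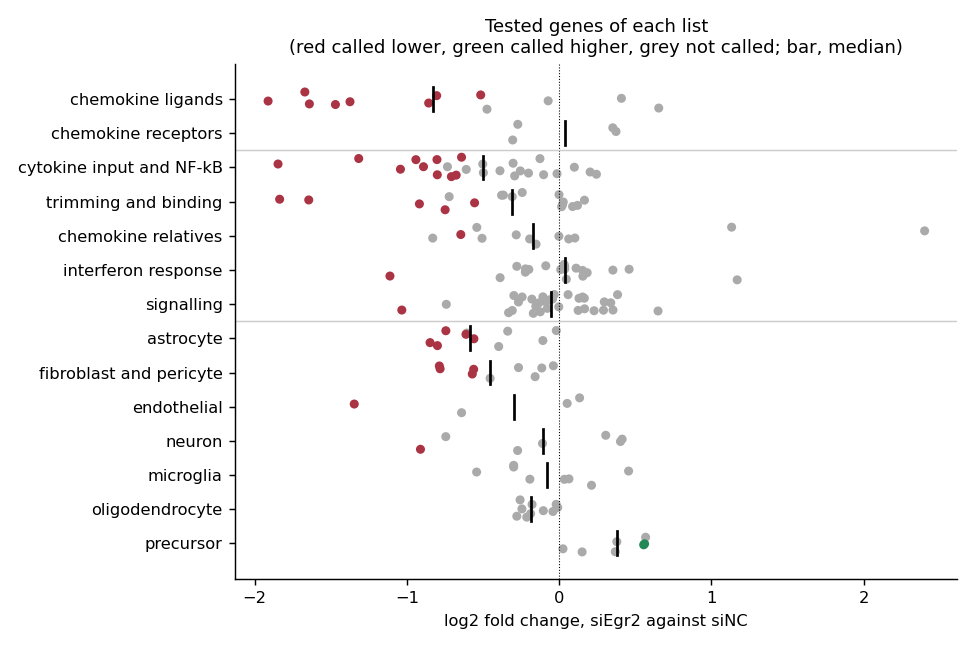
Log2 fold change in siEgr2 against siNC (x axis) of every tested gene of the chemokine groups, the surrounding lists and the cell type markers, with 1 point per gene and the median as a bar. The medians are -0.83 for the ligands, 0.041 for the receptors, -0.50 for cytokine inputs and NF-kappaB, and -0.58 for astrocyte markers.

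The ligand count was recomputed for depth and scaling. With every library thinned to the smallest total, with structural RNA left out, and with RLE, upper-quartile or no composition factors, 8 ligands were called lower and 0 higher. With the close pairs of libraries summed, an alternative chosen after seeing the data, 7 ligands were called lower, without Cxcl16, and 0 higher. Without composition factors the median over all genes moved to -0.18, and 88.0% of all calls were lower, against 65.9% with TMM.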

How the data were processed

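RNA from 6 siNC and 6 siEgr2 libraries had been sequenced on an Illumina platform with 50 bp reads. The authors deposited 1 table of raw read counts per gene for the 12 libraries, without normalization. The labels name the mm10 build, while the aligner, counter, annotation and use of strand are not given in the sources used here. A single unnamed row held no counts and was left out. Libraries of a group differed by more than sampling noise (mean chi-square per gene 7.56 to 39.8 over 30 pairs), so none was counted as a copy of another.

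Counts were filtered with filterByExpr, scaled by TMM and fitted with edgeR's quasi-likelihood test (edgeR 4.0.16, R 4.3.3) over all 16600 genes with robust dispersions, with Benjamini-Hochberg adjustment over all of them. Standard errors are the absolute log2 fold change divided by the square root of the F statistic. Thresholds (adjusted p below 0.05, log2 fold change over 0.5) follow the study's methods. The script was tested on simulated data. The alternatives were DESeq2 1.42.0, limma-voom (limma 3.58.1), other scalings, filters, thresholds and depths, the replicate block, each library left out and, added after seeing the data, libraries that are each other's closest summed. Gene positions and exon lengths are from GENCODE M21 (GRCm38) and promoters from RefSeq (GRCm38.p6).

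Every tested member was named with values, untested members with 10 or more counts were named, and at most 4 called genes were named per surrounding list, those with the largest fold. Called marker genes and Nfkbia, a further gene of the cytokine and NF-kappaB list, were named as well, which goes beyond that rule. The members and lists were chosen with earlier results of these data known. Some genes are not reported here. Intervals from counts cover counting error only.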

Additional observations from a re-analysis of the deposited data

Results flagged for a closer look

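In 32 sets of 6 libraries (16 tested members in each group), the gap of the most extreme library from the rest was examined by Dixon's test, and chance alone marks about 1 in 20 sets. Ccl28 was set apart in siEgr2 replicate 6, at 3.31 CPM against 1.48 to 1.79 CPM in the other siEgr2 libraries. Ackr3 was set apart in siNC replicate 3, at 10.9 CPM while the rest of siNC lay at 13.5 to 14.4 CPM. Neither gene was called with or without these libraries.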

How the results depend on the processing

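Of 367 member values recomputed over 23 alternative fits, 361 kept their direction and their call or lack of one, Cxcl14 and Cxcl16 lost theirs in the fits named above, and 3 values of members that were not called turned sign. These were Cxcl12 without siNC replicate 1 (0.089) and without siEgr2 replicate 6 (0.0072), with a range of -0.17 to 0.089 over the libraries left out, and Ackr4 without siEgr2 replicate 4 (-0.018), with a range of -0.018 to 0.56. The cause was not tested. The count of ligands called lower was 5 at an absolute log2 fold change over 1 and ranged from 7 to 8 with a library left out. All genes called numbered 1281, 1974 without composition factors, 3300 with no minimum fold change, 373 at a log2 fold change over 1, 1701 without the filter, and 1114 to 1339 with a library left out. With the replicate block 8 ligands and 1124 genes were called. Deviations of same-numbered libraries from their group means correlated at -0.021 to 0.052. Correlations over all tested genes can miss a shared culture, so pairing by number is not settled. With close libraries summed 971 genes were called. Ackr3 passed the adjusted p alone, with too small a fold, without composition factors (0.00568) and without siEgr2 replicate 6 (0.0444). The permutation count was 10 members, and 8 to 10 with a library left out. Ackr4 was not tested after thinning. Depth limits the untested members, since 3 counts equal up to 0.384 CPM in siEgr2.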
